A study of Bos taurus with 2 samples.

Results

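Mitochondrial carriers and import machinery were taken as the probes whose name on the array begins with SLC25A, TIMM or TOMM, control probes left out. They were 63 gene names of 32429, with 122 of 51282 probes and 137 of 61657 spots. The genes were 41 solute carriers of the SLC25 family, 12 translocases of the inner mitochondrial membrane (TIMM) and 10 of the outer membrane (TOMM). Of the names, 62 are current symbols in the RefSeq gene table of the ARS-UCD2.0 assembly, and TOMM70A is there a synonym of TOMM70.

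The study compared testis between crossbred bulls, Holstein Friesian crosses with 50 to 75% of exotic inheritance, and Zebu bulls of the Tharparkar breed. Each group was 3 bulls aged 24 months without any experimental treatment named. Their right testis was removed under sedation with xylazine and with local lignocaine. In each group the RNA of the 3 bulls was pooled and measured with the dye Cy3 on 1 Agilent bovine array of 60-base probes. Each pool rests on 3 animals, and the spread between bulls is lost in it. Since each group had a single array, the groups could not be tested against each other, so values stand without p-values, and their precision is limited by the number of arrays.

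SLC25 proteins carry nucleotides, phosphate, amino acids, organic acids and cofactors across the inner mitochondrial membrane. They are made in the cytosol, enter through the TOM channel of the outer membrane, are escorted across the intermembrane space by small TIM chaperones, and are inserted into the inner membrane by the TIM22 complex, whereas proteins with a cleavable presequence go through the TIM23 complex. In the testis, mitochondria make the first steps of steroid synthesis in Leydig cells, and in germ cells they are reshaped during meiosis and packed into the midpiece of the spermatozoon.

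The following stretches are shown since the largest differences, and the largest disagreements between probes of 1 gene, were read from them. They were copied from the deposited array design 5′ to 3′, with 30 of the 60 bases shown for most and the whole probe for TOMM20L and the upstream probe of SLC25A40, and capitals mark AATAAA, the usual polyadenylation signal.
SLC25A46 upstream probe: gtggcaatgcctttttattcagcaagtcta
SLC25A46 downstream probe: ggaacagcccatgatgattatattgactct
SLC25A25 upstream probe: tagccatctcattctgtgaatgtaccaaca
SLC25A25 downstream probe: aactggaattggtgacaaagcaaattaaga
SLC25A37 upstream probe: tcttcaagtacttcctcaccaaacacaagc
SLC25A37 downstream probe: agaaatgtgtgattctgtgtggggatgttt
SLC25A40 upstream probe: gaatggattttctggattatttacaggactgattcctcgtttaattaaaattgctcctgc
SLC25A40 downstream probe: tgcagttgtgtgctgaatgatgtacagagt
TOMM20 upstream probe: ggcagataagcttgttacggactgtcctcc
TOMM20 downstream probe: atatcagacctaagAATAAAgatccttggt
TOMM20L probe: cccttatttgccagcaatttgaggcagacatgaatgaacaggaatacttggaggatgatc
SLC25A30 downstream probe: ccataattccaaAATAAAtagttcctgtgt

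Positions are those of the array annotation on the build HGSC Btau_3.1, and whether a probe lies in coding sequence or a UTR was not analysed here. The SLC25A46 probes lie at chr7:111793310-111793369 and chr7:111797901-111797960, and the SLC25A25 probes at chr11:102310280-102310339 and chr11:102312018-102312077, all on the plus strand. The SLC25A37 probes shown lie at chr8:74262068-74262127 and chr8:74264350-74264409, also on the plus strand. The upstream probe of SLC25A40 spans chr4:33717030-33717429, so it crosses a gap in the genome as an exon junction does, and the downstream one lies at chr4:33717850-33717908. The TOMM20 probes lie on the minus strand at chr28:6363157-6363216 and chr28:6362149-6362208. The TOMM20L probe spans chr10:72676016-72676994 on the plus strand and also crosses a gap, and the probe of TIMM9 lies next to it on the minus strand at chr10:72677159-72677218. The SLC25A30 probe lies at chr12:14546632-14546691.

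A level is the log2 of the processed signal minus the 75th percentile of its array, so 0 is that percentile, and differences are given as crossbred minus Zebu. The percentile stood for signals of 1176 (crossbred) and 1233 (Zebu). For each gene the probe with the highest mean level was used, and the gene was detected where the scanner software marked that probe as well above background on at least 1 array. The SD between spots of a probe was 0.33 for a difference, over 5960 probes, and covers spotting and scanning only. Levels of different probes were used to choose the probe of a gene, to sum marker lists and to split the members by level. Amounts of different genes were not compared.

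Fewer cells of a type and less RNA per cell cannot be told apart in bulk tissue, and the arrays differed in their marker genes. All 12 spermatid markers were higher on the crossbred array, with a median difference of 1.80 and a summed level of 9.80 against 8.67 on the Zebu array, and all 7 spermatocyte markers measured were higher, with a median of 0.44 and summed levels of 4.53 and 4.14. Of the spermatocyte markers, SYCP3 (0.20) and HORMAD1 (0.14) lay within the spot SD, and the other probe of SYCP3 differed by -1.09. Of the 8 spermatogonial markers, 6 were lower, with a median of -0.66 and summed levels of 5.07 and 5.55. All 7 Sertoli cell markers measured were lower (median -1.08, summed levels 7.04 and 7.70), as were all 6 Leydig cell markers (summed levels 6.46 and 7.05) and all 5 peritubular markers (median -0.77, summed levels 4.87 and 5.69). The 5 endothelial markers and the 5 macrophage markers above background on both arrays had medians of 0.08 and 0.13. Of 5 red blood cell markers, HBB, ALAS2 and SLC4A1 were not well above background on either array and HBA differed by -2.15. The tissue's defining genes were therefore measured on both arrays, PRM1 at 7.43 and 7.07 and INSL3 at 6.25 and 6.69. The part of these markers in the differences of the carriers and translocases was not tested.

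Most of the carriers and translocases differed little between the arrays. Of the 63 genes, 62 were detected and 61 were well above background on both arrays. The probe named SLC25A42, a coenzyme A carrier, passed background in Zebu testis alone, and the probe named SLC25A43 in neither. Among the 61, 40 differed by under 0.5 in size, which is 65.6% against 52.2% of all 22842 gene names above background on both arrays, and 28 lay within the spot SD of 0. Their median difference was -0.23, with 19 above 0 and 42 below, so 31.1% were above 0 against 47.7% of all names, whose median was -0.04. The median was -0.23 for the 39 SLC25A genes, -0.21 for the 12 TIMM genes and -0.20 for the 10 TOMM genes.

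At a difference of 1.5 or more, 2 of the 62 detected genes were higher on the crossbred array, SLC25A46 and SLC25A25, where 7.12% of the 24751 detected gene names were. None of the members was lower by as much at the probe it was read from, where 2.92% of all detected names were. A probe described as SLC25A40 but listed under another name was outside this count. It had -3.03 in crossbred against -0.86 in Zebu testis, differing by -2.17. Its mean level was slightly higher than that of the named probe used for SLC25A40, so the count depended on the array's naming. At a difference of 1 or more, 4 members were higher against 12.8% of all names, and 5 were lower against 8.87%. At a linear fold of 1.5, 6 were higher against 21.4% of all names and 13 were lower against 22.2%. With the mean of all probes in place of 1 probe a gene, 2 were higher by 1.5 or more against 6.6% of all names and 1 was lower against 2.98%. The 31 members with the higher mean level had a median size of difference of 0.32, and the 30 with the lower one 0.53, while the median differences of these sets were -0.23 and -0.25. Medians over genes are descriptions, since genes are not replicates.

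**Figure D1:**
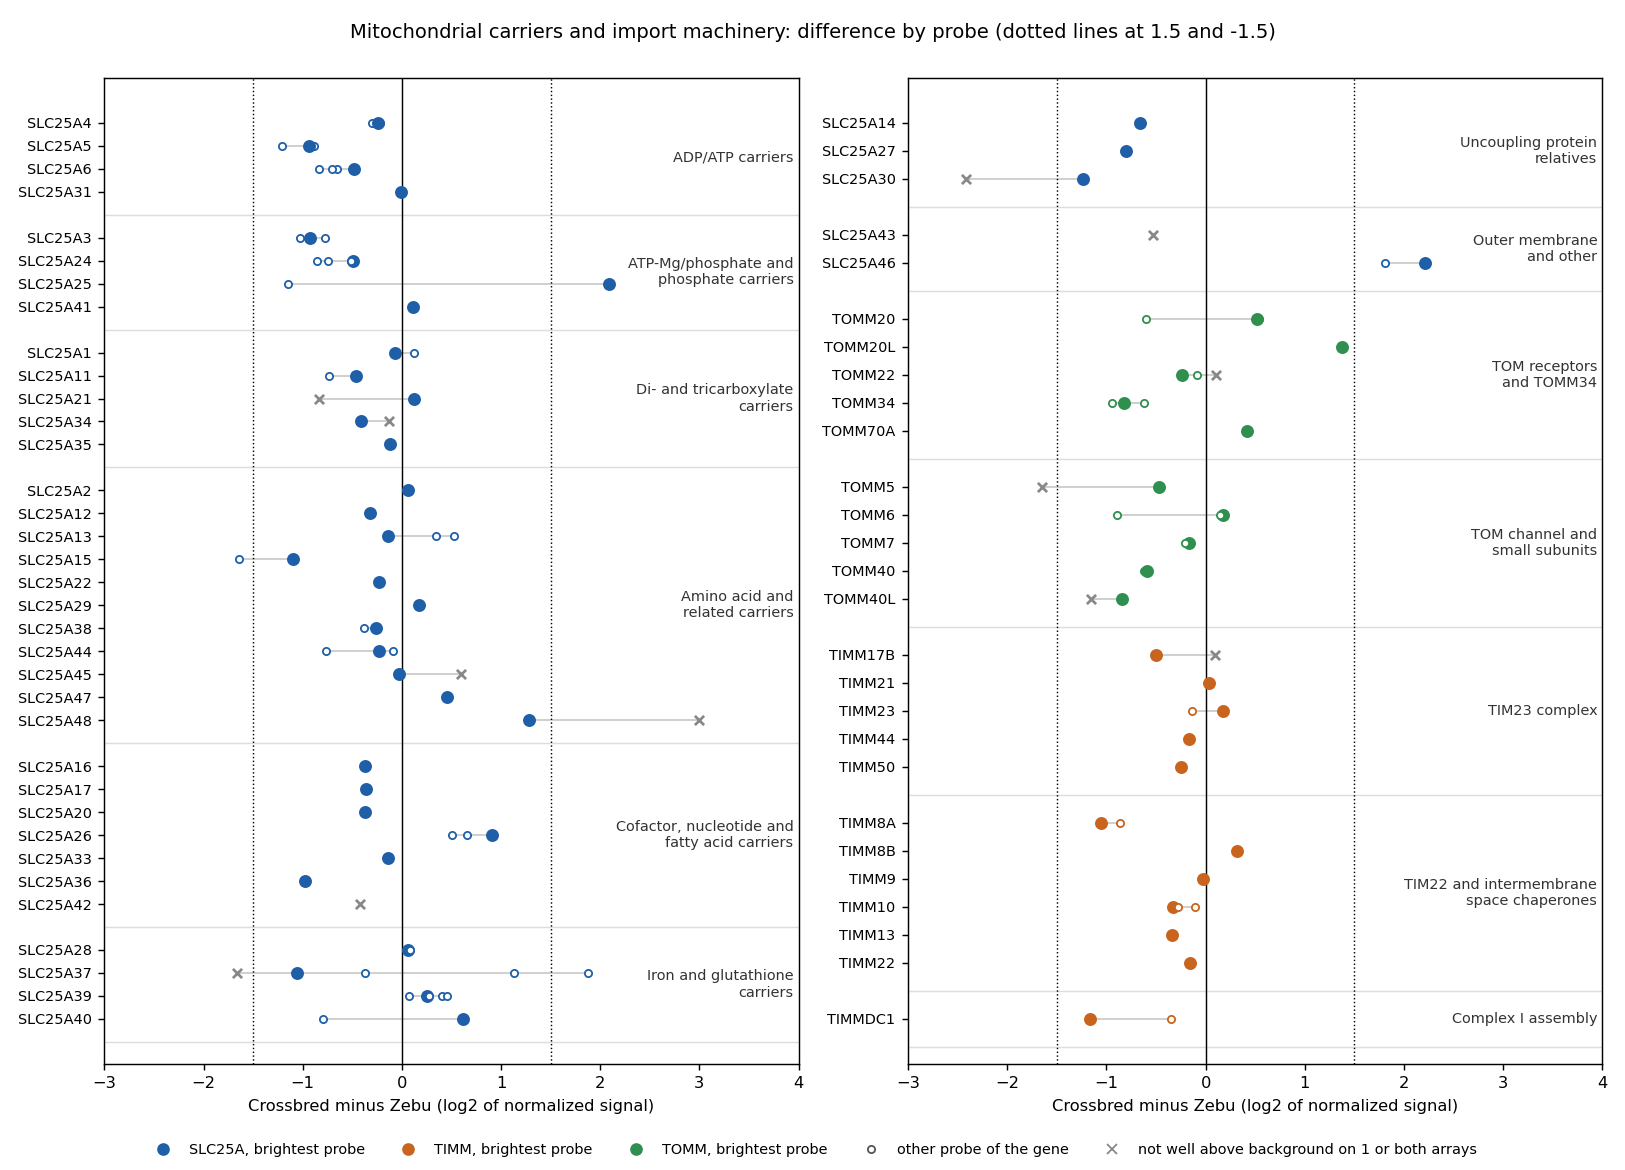
Difference between the arrays (crossbred minus Zebu, log2 of normalized signal, x axis) for each probe of the member genes shown, grouped by role. Filled points are the probe a gene was read from, open points its other probes and crosses probes not well above background on 1 or both arrays. Most filled points lie between -1 and 0.5, SLC25A46 and SLC25A25 lie past the dotted line at 1.5, and the probes of SLC25A25 and SLC25A37 lie on both sides of 0.

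The ADP/ATP carriers exchange the ATP made in the matrix for cytosolic ADP, and all 4 had differences at or below 0, with a median of -0.36. SLC25A4, the carrier of heart and muscle, had a level of 3.37 in crossbred and 3.61 in Zebu testis, and its 4 probes differed by -0.31 to -0.22. SLC25A5, the carrier of proliferating tissues, had -0.22 and 0.72, a difference of -0.94. Its other probes differed by -0.88 and -1.21, but the first of these shares 56 bases with the probe it was read from. SLC25A6 had 5.0 and 5.49, a difference of -0.48, and its 4 probes reached -0.84. SLC25A31, the carrier of male germ cells, had 0.78 on both arrays and a difference of -0.01 from its only probe. SLC25A5 and SLC25A6 thus differed by more than the spot SD, and SLC25A4 and SLC25A31 by less.

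Phosphate for ATP synthesis enters through SLC25A3, which had 2.33 in crossbred against 3.25 in Zebu testis, differing by -0.93, with -0.78 and -1.03 at its other probes. The ATP-Mg/phosphate carriers adjust the adenine nucleotide content of the matrix under the control of calcium. SLC25A24 of this group differed by -0.49, and its 4 probes reached -0.85. SLC25A25 had 2.34 and 0.25, a difference of 2.08 or 4.24-fold, read at its upstream probe. Its downstream probe went the other way, with -1.28 and -0.13 and a difference of -1.15, so the gene has no single direction on these arrays. SLC25A41, a member without the calcium-binding part, differed by 0.11.

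The carriers of di- and tricarboxylates, which move citrate, malate and oxoglutarate, had a median of -0.12 over 5 genes. SLC25A11, the oxoglutarate carrier of the malate-aspartate shuttle, was the member of this group farthest from 0, at -0.46 and at -0.74 by its other probe. SLC25A1, the citrate carrier, differed by -0.07, SLC25A21, the oxodicarboxylate carrier, by 0.12, SLC25A34 by -0.41 and SLC25A35 by -0.12.

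Among 11 carriers of amino acids and related substrates the median was -0.14, and 4 were above 0. SLC25A15, the ornithine carrier of the urea cycle, had -2.64 in crossbred against -1.54 in Zebu testis, differing by -1.10, with -1.65 at its other probe. SLC25A48 had -1.27 and -2.56, a difference of 1.28. Its other probe was not above background in Zebu testis and was higher in crossbred testis by at least 1.84-fold, so both probes had the same direction. SLC25A12 and SLC25A13, the aspartate/glutamate carriers, differed by -0.32 and -0.14, and the 3 probes of SLC25A13 ran from -0.14 to 0.52. SLC25A22, a glutamate carrier, differed by -0.23, SLC25A38, a glycine carrier needed for heme synthesis, by -0.26, and SLC25A44, a carrier of branched-chain amino acids, by -0.23. SLC25A2, SLC25A29, SLC25A45 and SLC25A47 lay between -0.03 and 0.46.

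The carriers of cofactors, nucleotides and fatty acids had a median of -0.36 over the 7 measured on both arrays, and 1 of them was above 0. That gene was SLC25A26, which brings the methyl donor S-adenosylmethionine into the matrix. It had 2.04 in crossbred against 1.13 in Zebu testis, differing by 0.91, with 0.66 and 0.50 at its other probes. SLC25A36, a carrier of pyrimidine nucleotides, had -0.97 and 0.00, a difference of -0.97, while SLC25A33, its relative, differed by -0.14. SLC25A20, which carries acylcarnitines for fatty acid oxidation, differed by -0.37, SLC25A16 by -0.37 and SLC25A17, a carrier of the peroxisome, by -0.36. The probe named SLC25A42 was at least 1.34-fold lower on the crossbred array. A probe listed under an accession and described as this gene was above background on both arrays, with -4.96 and -5.23. Its difference of 0.27 was within the spot SD, and both probes had low signals, so this gene showed no clear direction.

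The iron and glutathione carriers serve heme and iron-sulfur cluster synthesis and the redox state of the matrix. SLC25A37, or mitoferrin-1, had 0.10 in crossbred and 1.16 in Zebu testis at its downstream probe, a difference of -1.06 at each of its 2 spots. Of its other probes, 2 differed by 1.13 and 1.87 and 1 by -0.38, and 1 passed background in Zebu testis alone, at least 1.96-fold lower in crossbred testis. As for SLC25A25, the direction of this gene depended on the probe. SLC25A28, or mitoferrin-2, differed by 0.07. SLC25A39, a glutathione carrier, had 4.56 and 4.31, and all 5 of its probes lay between 0.07 and 0.46. SLC25A40, its close relative, had -1.64 and -2.26, a difference of 0.62 at the upstream probe, against -0.80 at the downstream probe.

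The relatives of the uncoupling proteins were lower on the crossbred array in all 3 cases, with a median of -0.80, each read from low signals. SLC25A30 had -2.65 in crossbred against -1.42 in Zebu testis, differing by -1.24. Its other probe passed background in Zebu testis alone and was at least 1.16-fold lower in crossbred testis, and the 6 spots nearest to that spot had a median difference of -1.03. SLC25A27 differed by -0.80 and SLC25A14 by -0.66, each from 1 probe.

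SLC25A46 differs from the carriers above in its place, since it lies in the outer membrane and takes part in the shaping of mitochondria and their contacts. It had 0.25 in crossbred against -1.96 in Zebu testis, differing by 2.21 or 4.64-fold, the largest among the 61 members measured on both arrays. Its upstream probe had -0.24 and -2.05, a difference of 1.81, and a probe listed under an accession but described as this gene had 0.19 and -1.22, a difference of 1.41. All these probes were higher on the crossbred array, by more than the spot SD, and the 6 spots nearest to the 2 spots of the named probes had medians of 0.65 and -0.41.

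**Figure D2:**
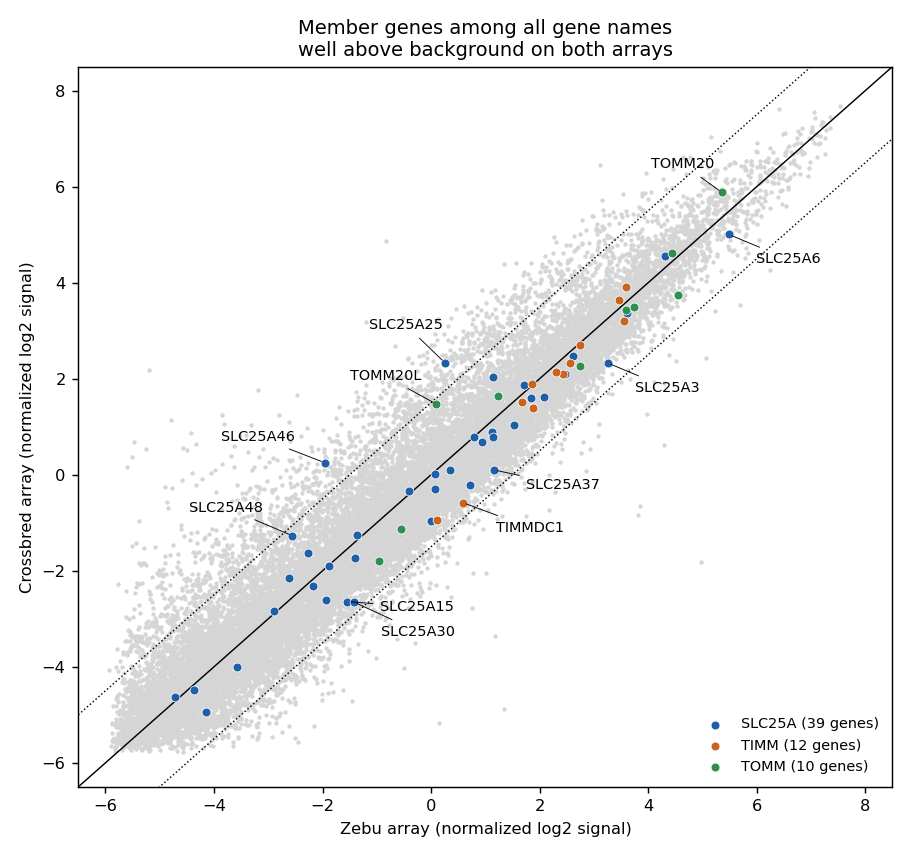
Normalized log2 signal on the Zebu array (x axis) against the crossbred array (y axis) for all gene names well above background on both arrays (grey) and the member genes (coloured by family), with the line of equal signal and dotted lines at a difference of 1.5 and -1.5. SLC25A46 and SLC25A25 lie above the upper dotted line, and TOMM20L and SLC25A48 lie below it.

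The receptors of the TOM complex bind precursors at the outer surface. TOMM20, which recognizes presequences, had 5.88 in crossbred against 5.36 in Zebu testis, differing by 0.52. A second probe of it differed by 0.54, but shares 35 bases with the first, and the third, downstream one had 1.77 and 2.37, a difference of -0.60. TOMM20L, a TOMM20-like gene, had 1.47 and 0.10, a difference of 1.37 or 2.59-fold, and its 2 spots gave 1.18 and 1.57. A probe listed under an accession and described as this gene had 1.97 and 0.57, a difference of 1.40, so both of its probes were higher on the crossbred array. The neighbouring TIMM9 probe on the opposite strand differed by -0.03. TOMM70A, the receptor of carrier precursors, had 1.65 and 1.23, a difference of 0.41, and TOMM22, the central receptor, had 3.49 and 3.73, a difference of -0.24. TOMM34, a cytosolic partner of Hsp70 and Hsp90, had 3.73 and 4.55, a difference of -0.82, with -0.94 and -0.62 at its other probes.

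The channel TOMM40 and the small subunits had a median of -0.47 over 5 genes. TOMM40 had -1.14 in crossbred against -0.55 in Zebu testis, differing by -0.59, with -0.62 at its other probe. TOMM40L, its paralogue, had -1.81 and -0.96, a difference of -0.84, and its other probe was at least 1.55-fold lower on the crossbred array. Both channel genes were thus lower on the crossbred array at every probe. Of the small subunits, TOMM5 had 2.26 and 2.74, a difference of -0.47, TOMM7 differed by -0.17 and TOMM6 by 0.18. The probes of TOMM6 differed by 0.18 and 0.14, and by -0.90 at 1 probe that the annotation puts on the opposite strand.

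The core genes of the TIM23 complex differed by -0.50 to 0.18. TIMM23, the channel, had 3.64 in crossbred against 3.46 in Zebu testis, differing by 0.18, which turned to -0.19 with another background correction (normexp). Its other probe shares 46 bases with the first and differed by -0.14. TIMM17B, which pairs with the channel, had 1.38 and 1.88, a difference of -0.50. TIMM50, the receptor of the complex, had 2.32 and 2.57, a difference of -0.25, TIMM44, which ties the import motor to the channel, had 1.51 and 1.68, a difference of -0.17, and TIMM21 had 1.90 and 1.86, a difference of 0.03 that was -0.02 after quantile normalization. Of these 5 genes TIMM17B alone lay past the spot SD.

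The TIM22 complex and the small chaperones, which handle the carriers themselves, had a median of -0.25 over 6 genes. TIMM22 had 2.14 in crossbred against 2.30 in Zebu testis, differing by -0.16. TIMM9 and TIMM10, which form the main chaperone, differed by -0.03 and -0.33, TIMM13 by -0.34 and TIMM8B by 0.32. TIMM8A, the deafness dystonia protein that works with TIMM13, had -0.95 and 0.11, a difference of -1.06. The spot of this probe lies in a dark patch of the crossbred array, 544 spots with a median difference of -1.01. Outside the patch, the other probe of TIMM8A differed by -0.86. Of the member spots, 2 lay in the dark patch and 0 in a bright patch of 105 spots with a median of 1.1. The second of them was 1 of the 2 spots of TIMM22, which gave -0.16 inside the patch and -0.17 outside. The 6 spots nearest to each had medians of -0.98 inside and -0.84 outside. The TIMM22 spot outside the patch thus also lay among spots that were lower on the crossbred array.

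TIMMDC1 carries a TIM-like name but is an assembly factor of respiratory complex I. It had -0.58 in crossbred against 0.59 in Zebu testis, differing by -1.17, while its upstream probe had -2.75 and -2.40, a difference of -0.35. The 2 probes had the same direction and differed in size by more than the spot SD.

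Several probes of 1 gene gave a further check on each value. Of the 37 members with several probes, 28 had several that passed background on both. All probes were below 0 in 16 of them, above 0 in 4 and on both sides in 8. The distance between the lowest and the highest probe had a median of 0.34 and was within 0.5 in 19 genes. Among these named probes, only SLC25A25 and SLC25A37 had values more than 1.5 apart. With the probes described as SLC25A40 under other names, that gene ran from -2.17 to 0.62. Counted by probe, 5 of the 115 detected member probes were higher by 1.5 or more, against 6.14% of all detected probes, and 3 were lower, against 2.99%. The 5 were both probes of SLC25A46 and 1 each of SLC25A25, SLC25A37 and SLC25A48, and the 3 were of SLC25A15, SLC25A30 and SLC25A37. For SLC25A48, SLC25A30 and the lower SLC25A37 probe the dim array was not above background, so the bounds above hold in place of a fold.

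Where 2 probes of the same transcript were at least 60 bases apart, the upstream one was compared with the downstream one. In 14 of 27 member transcripts the upstream probe had the higher difference, which is 51.9% against 57.8% of 7289 transcripts on the array, and the median gap was 0.02 against 0.08. In 3 of them, or 11.1%, the gap was 1.5 or more, against 4.18% of all, and in none was it -1.5 or less, against 1.07% of all. The 3 were SLC25A25, with a gap of 3.23 between probes 1738 bases apart, and 2 transcript records of SLC25A37, with gaps of 2.93 over 2282 bases and 1.51 over 303 bases. SLC25A40 followed with 1.42 over 481 bases and TOMM20 with 1.12 over 1008 bases. In each of these the upstream probe was higher and the downstream probe lower on the crossbred array. The widest gap the other way was -0.54, in SLC25A15.

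**Figure D3:**
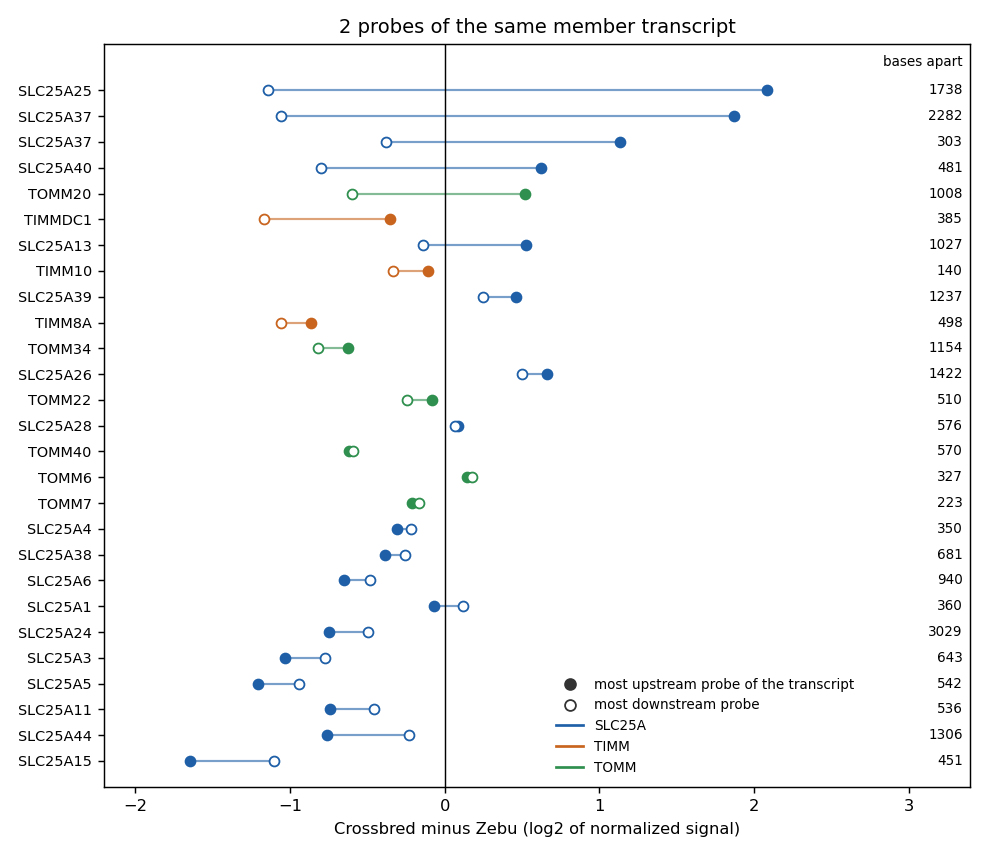
Difference between the arrays (crossbred minus Zebu, log2, x axis) of the most upstream probe (filled) and the most downstream probe (open) of 27 member transcripts, ordered by the gap, with the bases between the probes at the right. The gap is 3.23 for SLC25A25 and 2.93 for SLC25A37, and most pairs lie within 0.5 of each other.

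The letters AATAAA, searched on the printed strand alone, were found in 16 of the 122 member probes, or 13.1%, against 8.35% of all probes. The 15 of these above background on both arrays had a median difference of -0.41, and the 94 member probes without it -0.24. Over all probes the medians were -0.15 with it (3588 probes) and -0.05 without it (32855 probes). The downstream probe of TOMM20 and the probe of SLC25A30 shown above are among the probes that hold it. The downstream probes of SLC25A25 and SLC25A37 shown above do not hold it anywhere in their 60 bases. The GC content of the member probes had a median of 45.0%, as did that of all probes, and the median difference was -0.24 for member probes on either side of it. The longest exact stretch shared by probes of different member genes was 15 bases. Similarity with mismatches, and matches of a probe to the transcript of another member, were not analysed here. The annotation places 1 probe of SLC25A6, with a difference of -0.71, at chr27:16805934-16805993, near the probes of SLC25A4.

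Other groups of mitochondrial genes, and the solute carriers outside the SLC25 family, had medians nearer to 0 or above it. The 84 genes of the respiratory chain had a median difference of 0.09, from -0.86 to 0.89, and none was called in either direction. The 75 mitochondrial ribosomal proteins had a median of 0.02, with 1 higher and 1 lower. The 215 solute carriers outside the SLC25 family that were above background on both arrays had a median of 0.06, and 23 of the 243 detected were higher and 10 lower. By the same threshold of 1.5, 7.12% of all detected gene names were higher and 2.92% lower. These medians are given as descriptions of 2 arrays, without a test.

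A list of other genes of the import pathway and the uncoupling proteins UCP1 to UCP3 held 28 names, of which 24 were above background on both arrays. Those 24 had a median of 0.24, with 15 above 0 and 9 below. UCP2 is among the 24 but is a carrier and not an import gene. FXC1, an older symbol of the small TIM chaperone TIMM10B, is also among them. It differed by 0.46, and by -1.25 at its other probe. The median without these genes was not computed. Of the 26 names of the list that were detected, 1 was higher by 1.5 or more and none lower, against 7.12% and 2.92% of all detected names. GFER, the oxidase that drives import into the intermembrane space, had 3.98 in crossbred against 2.0 in Zebu testis, differing by 1.98, but -0.24 at its other probe. IMMP1L, an inner membrane peptidase, had -1.04 and -2.43, a difference of 1.40, with 0.30 at its other probe. MTCH1, a relative of the carriers in the outer membrane, had 4.25 and 5.35, a difference of -1.10, and its 4 probes ran from -1.65 to -1.10, whereas its paralogue MTCH2, an outer membrane insertase, differed by 0.63. MTX1 and MTX2, the metaxins of outer membrane protein assembly, differed by 0.72 and 0.75, and DNAJC15, a cochaperone of the TIM23 motor, by 0.74. The matrix chaperonins HSPD1 and HSPE1 differed by -0.41 and -0.44, and HSPA9, the motor itself, by 0.10. Of the uncoupling proteins proper, UCP2 differed by 0.96 and by 0.98 at its other probe, UCP1 passed background on neither array and UCP3 in Zebu testis alone.

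**Figure D4:**
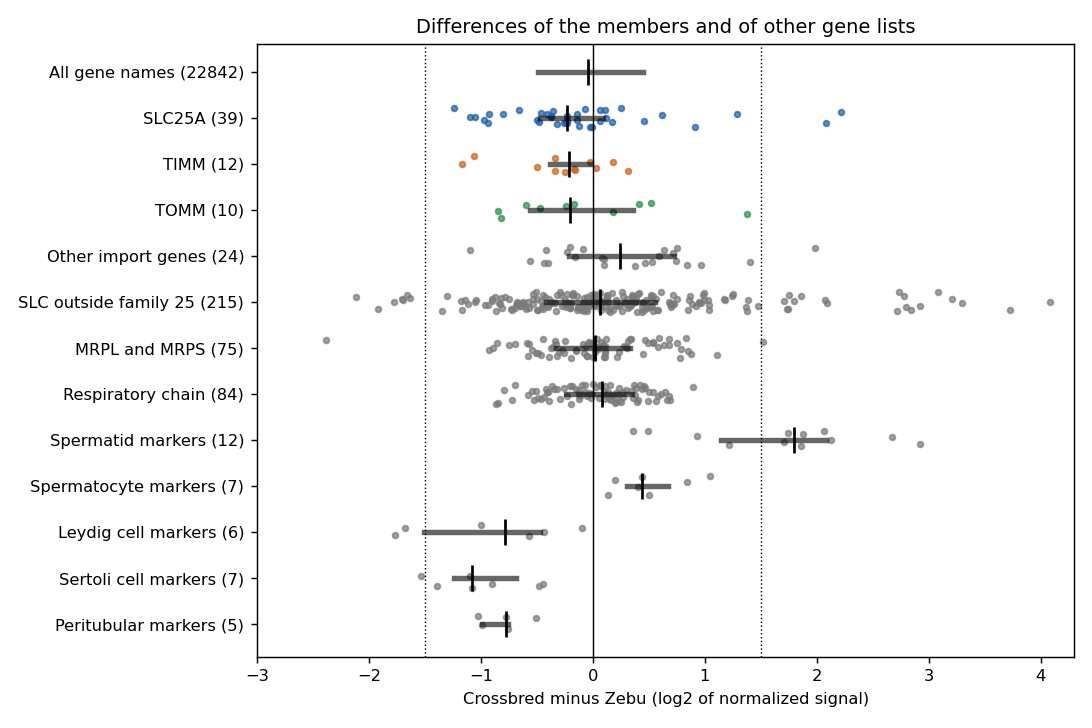
Difference between the arrays (crossbred minus Zebu, log2 of normalized signal, x axis) of each gene above background on both arrays in the member families and in other lists, with the number of genes in brackets. The tick marks the median and the thick bar the middle part of the values between the quartiles, shown alone for all gene names. The 3 member families have medians of -0.23 to -0.20, and the spermatid markers lie apart at 1.80.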

How the data were processed

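Testis RNA of 3 crossbred and 3 Zebu bulls was combined into 1 pool a group, each hybridized to 1 array. Per the labels, the RNA was copied from an oligo dT primer before Cy3 labelling. The authors deposited for each spot an intensity, the processed signal of Agilent Feature Extraction 11.5.1.1, from which, per the file headers, background and a spatial trend had been removed, without normalization between arrays. They also deposited log2 values shifted by the 75th percentile, which were used as an alternative.

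Control spots and 13 outlier spots were dropped, and saturation was not marked for any spot. Spots of 1 probe were averaged as log2 signals, from which the 75th percentile over non-control probes was subtracted. A probe was above background only where all its spots were. Genes were counted at a difference of 1.5 in size with the brighter array above background. For bounds with a dim array under background, the bright value was set against the higher of the dim value and the lowest level above background (-5.78 on the crossbred array, -5.94 on the Zebu array).

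Named with both values were members at 1 or more in size, the ADP/ATP carriers, the TOM receptors and channel, the TIM23 core, members with spots in the patches or with probes over 1.5 apart, and other import genes at 1 or more. Other members were added by role. SLC25A46 and SLC25A32 were to be named as carriers that the study lists, but SLC25A32 is no gene name on the array and was not analysed here. Values of some genes are not reported here. Members and lists were chosen with earlier results of these data known. The alternatives were other scalings, background correction, thresholds, filters and rules for probes. R 4.3.3 with limma 3.58.1 and Python 3.11.15 were used, and the steps were tested on simulated data.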

Additional observations from a re-analysis of the deposited data

How the results depend on the processing

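Over the probes that carry the member names, the number of members higher on the crossbred array was 2 and the number lower was 0. Counting every probe on its own gave 5 higher and 3 lower, a linear fold of 1.5 gave 6 and 13, a log2 difference of 1 gave 4 and 5, and averaging the probes of each gene gave 2 and 1. By these averages the higher genes were SLC25A46 and SLC25A48 (2.14) in place of SLC25A25, and the lower was SLC25A30 (-1.83), but SLC25A48 and SLC25A30 each include a probe that was not above background on the dimmer array, at its deposited signal, so these values are not folds. Only probes with 2 or more spots, which left 15 genes, gave 0 and 0. The other settings, among them the choice of the probe brightest on either array, which was chosen after seeing the data, gave 2 and 0. The median of the TOMM genes was -0.20 and was 1.37 where only probes with 2 or more spots were kept, since TOMM20L alone was left. The medians of the SLC25A, TIMM and other import genes moved by less than the spot SD in every setting tried, and the median of all gene names stayed between -0.07 and 0.02. Of 284 values of 28 named genes under other settings, 275 moved by less than the spot SD, 8 moved by more with the mean of all probes and 1 with normexp. With the mean of all probes SLC25A25 had 0.47 and SLC25A37 -0.02. In 2 cases the sign changed, those of TIMM21 and TIMM23 given above. No paired analysis was possible because each group has 1 array and the labels give no replicate numbers. The limits are 1 array of pooled RNA per group, no test, and an SD between spots that leaves out labelling, pooling and animals. Of the member probes, 107 had 1 spot and 15 had 2, and 7 were above background on neither array.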

Other observations

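Besides the members, 16 probes under 14 other names are described on the array as a carrier or translocase of these families, of which 14 passed background on both. TIMM17A, the paralogue of TIMM17B and listed only under accessions, differed by 0.30 and 0.51 at its 2 probes, whereas TIMM17B differed by -0.50. A probe described as SLC25A10, the dicarboxylate carrier, differed by 0.20, with levels of 2.21 in crossbred and 2.01 in Zebu testis. Of the 3 probes of LOC616319, a gene described as like the phosphate carrier SLC25A3, 1 differed by 0.99 and the others by 0.06 and 0.02, whereas all 3 probes of SLC25A3 lay between -1.03 and -0.78.

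Of 2 probes described as SLC25A40, 1 had -3.03 in crossbred against -0.86 in Zebu testis, differing by -2.17, and the other differed by 0.05, so that the 4 probes described as this gene ran from -2.17 to 0.62. The probes described as SLC25A28, SLC25A36 and TIMM44 differed by 0.15, -0.41 and -0.06, on the same side of 0 as the genes of those names. For SLC25A28 and TIMM44 these values and those of the named genes lay within the spot SD, so their side of 0 is not informative. The probe described as SLC25A42 differed by 0.27, on the other side of 0 from the gene of that name but within the spot SD. Its levels were low, -4.96 in crossbred and -5.23 in Zebu testis.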
